A study of Mus musculus with 28 samples.

Results

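The genes described here are 10 known markers of the alveolar type 1 cell, namely Ager, Hopx, Pdpn, Aqp5, Cav1, Rtkn2, Emp2, Akap5, Clic5 and Gprc5a. They were chosen by name from what is known of this cell type, and all 10 were found among the 19375 genes with a value in all 28 libraries. The libraries came from lung cells sorted by flow cytometry from wild-type C57BL/6 mice aged 8 weeks. They fall into type 1 alveolar epithelial cells (AEC1, 6 libraries), type 2 alveolar epithelial cells (AEC2, 6 libraries), group 2 innate lymphoid cells (ILC2, 9 libraries) and basophils (7 libraries). There were 3 conditions: no treatment, papain, and papain with FK506. The plant protease papain provokes allergic inflammation and was given into the nose at 50 µg each day. The calcineurin inhibitor FK506 was injected intraperitoneally at a daily 0.2 mg per mouse, for 3 days at a time with a gap of 2 days, the later course together with papain. AEC1 and AEC2 had 2 libraries per condition and ILC2 had 3. Basophils had 1 untreated library, whose title names controls 1 and 2, and 3 libraries for each of the other conditions. The labels do not say whether replicates came from separate animals, so p-values measure only the spread between libraries, part of which may be technical.

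The alveolar type 1 cell is the thin, wide cell across which gas is exchanged, and the type 2 cell is the cuboidal cell that makes surfactant and can give rise to type 1 cells after injury. Ager encodes RAGE, a receptor for S100 proteins and other ligands, which in the lung is abundant on type 1 cells. Aqp5 is a water channel of the apical membrane, Pdpn (podoplanin) a membrane glycoprotein also carried by mesothelial cells, lymphatic vessels and some fibroblasts, and Cav1 the main structural protein of caveolae, abundant in endothelium and fibroblasts too. Hopx is a homeodomain cofactor, Emp2 a membrane protein of the PMP22 family, Clic5 a chloride channel family protein tied to the cytoskeleton, Akap5 an anchor for protein kinase A and calcineurin, and Gprc5a an orphan receptor of lung epithelium.

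The start-site regions of 4 members are shown because their libraries did not overlap between the 2 epithelial populations, Ager and Aqp5 being higher in AEC2 and Pdpn and Cav1 higher in AEC1. Each is the RefSeq window (GRCm38.p6) from 250 bases before to 50 bases after the gene's RefSeq start, written 5′ to 3′ on the gene's own strand. Capitals mark a match to the NKX2-1 motif letters CACTNNAG on either strand. RefSeq windows were found for 8 of the 10 members, giving 10 windows.
Ager, chr17:34597600-34597899, plus strand: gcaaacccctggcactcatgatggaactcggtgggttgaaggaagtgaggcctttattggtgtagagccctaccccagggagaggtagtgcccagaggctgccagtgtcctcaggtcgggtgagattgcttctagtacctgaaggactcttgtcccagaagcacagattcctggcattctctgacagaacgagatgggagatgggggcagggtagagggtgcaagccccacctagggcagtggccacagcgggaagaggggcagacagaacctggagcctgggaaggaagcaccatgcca
Aqp5, chr15:99590778-99591077, plus strand: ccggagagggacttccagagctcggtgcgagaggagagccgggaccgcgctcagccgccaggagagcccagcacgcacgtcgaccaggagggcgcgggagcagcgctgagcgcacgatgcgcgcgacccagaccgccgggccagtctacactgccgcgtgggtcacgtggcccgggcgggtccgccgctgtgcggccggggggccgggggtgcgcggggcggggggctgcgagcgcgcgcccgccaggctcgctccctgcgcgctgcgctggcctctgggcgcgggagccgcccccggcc
Pdpn, chr4:143299515-143299814, minus strand: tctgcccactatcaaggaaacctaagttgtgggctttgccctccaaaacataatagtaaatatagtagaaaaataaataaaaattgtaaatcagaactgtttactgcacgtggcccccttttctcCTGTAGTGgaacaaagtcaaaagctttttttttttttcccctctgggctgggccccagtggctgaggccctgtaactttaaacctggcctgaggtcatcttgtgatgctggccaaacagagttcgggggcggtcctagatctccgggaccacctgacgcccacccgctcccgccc
Cav1 (first of 2 windows), chr6:17306085-17306384, plus strand: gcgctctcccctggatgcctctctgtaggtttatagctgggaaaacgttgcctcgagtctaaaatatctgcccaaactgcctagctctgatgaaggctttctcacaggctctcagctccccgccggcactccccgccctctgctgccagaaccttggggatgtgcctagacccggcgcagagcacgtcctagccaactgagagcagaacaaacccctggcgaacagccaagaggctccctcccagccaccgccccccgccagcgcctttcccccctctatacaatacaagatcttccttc
The TEAD motif letters CATTCC, searched on both strands, occurred in 0 of the 10 member windows and in 14.7% of all 32851 RefSeq windows. The NKX2-1 letters occurred in 3 member windows (Pdpn, Akap5 and the second of Hopx) and in 16.0% of all windows. The Aqp5 window was 79.7% G and C, against 48.7% for Pdpn and a median of 52.7% over all windows. The GENCODE M21 annotation starts Aqp5 at base 99590782, so nearly all of this RefSeq window lies inside the gene as annotated there. A match of letters is a description and not a binding site.

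Values are CPM, reads scaled to a common library total, from a 3′-end method in which a transcript gives about 1 read whatever its length. In the libraries whose reads could be recovered, there were 847458 to 975610 reads per AEC1 library and 1206855 to 1335827 per AEC2 library, so 1 CPM was about 1 read. Gapdh was listed at 0 in all 6 AEC1, 5 AEC2, 5 ILC2 and 3 basophil libraries. A value of 0 therefore says only that a gene was listed at 0. The listed values summed to 986819 to 992526 CPM in AEC1 and 989854 to 992311 in AEC2, but to 519768 to 636598 in ILC2 and 612434 to 672357 in basophils, which limits any comparison of levels across those tables. The libraries labelled AEC2 untreated replicate 2 and AEC2 papain replicate 2 were nearly identical. Across 6719 genes their log2 values correlated at r = 0.985, against 0.526 at most for other AEC2 pairs. Genes within a library are not independent of each other. Of 5551 genes compared by a chi-square on recovered reads, 94.7% lay below 3.84, against 21.9% at most in the other pairs. Because they carry different labels both were kept, and AEC2 results are given with and without them.

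The sorted populations were checked against defining genes. In AEC2, surfactant gene Sftpc ran from 32887.2 to 61276.0 CPM and Epcam was above 0 in all 6 libraries. The AEC2 libraries also carried the airway club cell gene Scgb1a1, at 1920.0 to 19332.8 CPM against 36.6 to 640.8 in AEC1. The summed level of 20 airway epithelial markers was 10418.1 to 34228.4 CPM in AEC2 and 402.3 to 2103.2 CPM in AEC1. The part of airway cells in the member levels of AEC2 was not tested. In AEC1 the epithelial adhesion gene Epcam was listed at 0 in 4 of 6 libraries, while the epithelial keratin genes Krt18 (24.5 to 258.8 CPM), Krt8 (0 to 47.6 CPM) and Krt7 (0 to 120.8 CPM) were above 0 in 6, 5 and 5 of them. The cadherin gene Cdh1 was at 0 in all 6 AEC1 libraries, but it was also low in AEC2 (median 14.8 CPM) and higher in ILC2 (median 37.0 CPM) and basophils (median 75.9 CPM), so it did not mark epithelium in these tables. The AEC1 libraries carried the mesothelial genes Msln (65.3 to 685.7 CPM), Upk3b (81.7 to 232.9 CPM) and Wt1 (116.7 to 348.4 CPM), which in AEC2 did not exceed 0.8 CPM. They also carried the matrix genes Col3a1 (860.3 to 4990.2 CPM) and Mgp (3949.5 to 13889.7 CPM). The label AEC1 is therefore kept only as a name of the sort. In the basophil libraries Mcpt8 and Fcer1a, which define basophils, were listed at 0 in all 7, and Cpa3 in 6. In ILC2, Il7r was above 0 in all 9 libraries and Gata3 in 8 of 9.

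Members split in opposite directions between the sorted epithelial populations. Over all treatments 3 members were higher in AEC2 (Ager, Aqp5 and Gprc5a), 2 were lower (Pdpn and Cav1), 4 did not pass and Rtkn2 was too low to test. These calls come from limma on log2(CPM + 2), adjusted over all 9841 genes tested. Over all those genes 12.7% were called, 4.43% higher in AEC2 and 8.25% lower. The median difference over the 9 members tested was 0.45 and over all genes -0.45. Without the nearly identical libraries the same 5 members were called.

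Ager was the most abundant member in every AEC2 library. In AEC2 it was 1384.0 and 3101.8 CPM in the untreated libraries, 2496.9 and 3295.3 with papain, and 2399.6 and 3505.7 with papain and FK506. In AEC1 it was 50.5 and 75.9, then 37.1 and 110.7, then 94.5 and 114.4 CPM in the same order. The groups did not overlap, and the lowest AEC2 library was 12.1 times the highest AEC1 library. The AEC2 mean of 2697.2 ± 778.2 CPM (SD, n = 6) was 33.5 times the AEC1 mean of 80.5 ± 31.8 CPM (SD, n = 6). The log2 difference was 5.17 (SE 0.38, limma adjusted p = 1.267e-05), and 4.90 without the nearly identical pair (limma adjusted p = 0.000771). In these bulk libraries fewer cells of a type and less RNA per cell cannot be told apart. Ager made up 71.8 to 85.3% of the summed member level in AEC2 and 3.3 to 14.1% in AEC1. The summed level of 21 AEC2 markers, among them Sftpc and Sftpa1, was 135131.0 to 174466.6 CPM in AEC2 and 2219.5 to 10869.4 CPM in AEC1. Ager was 1.02 to 2.42% of that sum in AEC2 and 0.64 to 4.49% in AEC1, ranges that overlap. The part of AEC2 RNA in the Ager reads of AEC1 libraries was not tested.

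Aqp5 and Gprc5a lay on the same side as Ager, at lower levels. Aqp5 was 152.0, 224.7, 331.9, 212.0, 425.9 and 329.8 CPM in the AEC2 libraries and 47.1, 74.8, 50.8, 4.1, 0 and 31.8 CPM in the AEC1 libraries (each as untreated, papain, papain with FK506). The groups did not overlap (log2 difference 3.74, SE 0.77, limma adjusted p = 0.009349). Gprc5a was 67.0 to 194.7 CPM over the AEC2 libraries, and in AEC1 it was 53.9 and 141.5 CPM without treatment, 11.6 and 0 with papain and 0 in both libraries with FK506. Its groups overlapped through AEC1 untreated replicate 2, while replicate 1 lay below every AEC2 library (log2 difference 3.87, SE 0.69, limma adjusted p = 0.004144). In untreated libraries alone the Gprc5a difference was 0.21, against 4.82 with papain and 6.44 with papain and FK506, so the overall value rests on the treated libraries. The Aqp5 difference also varied with condition, at 1.62 without treatment (limma adjusted p = 0.238), 3.78 with papain (0.157) and 5.57 with papain and FK506 (0.104), each from 2 libraries against 2.

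Pdpn and Cav1 marked the AEC1 libraries. Pdpn was 98.8 and 125.4 CPM in untreated AEC1, 368.5 and 310.6 with papain, and 229.9 and 432.9 with papain and FK506. It was listed at 0 in all 6 AEC2 libraries, so no fold is given. The log2 difference of -6.80 (SE 0.66, limma adjusted p = 8.133e-05) depends on the 2 CPM added and is no bound. Cav1 was 499.4 and 570.4 CPM in untreated AEC1, 367.4 and 169.1 with papain, and 172.7 and 38.9 with papain and FK506. In AEC2 it was listed at 0 in 5 libraries and was 33.1 CPM in papain with FK506 replicate 2, so the groups did not overlap. The log2 difference was -6.08 (SE 0.84, limma adjusted p = 0.0008599). By condition it was -8.06 without treatment (limma adjusted p = 0.0867), -7.05 with papain (0.0593) and -3.25 with papain and FK506 (0.384), each from 2 libraries against 2. Over all conditions it was -5.40 without AEC2 papain with FK506 replicate 1 and -6.78 without that group's replicate 2. Without AEC1 papain with FK506 replicate 1 the Aqp5 difference was 2.97, and without that group's replicate 2 it was 4.37. No setting of these single-library omissions ended any of the 5 calls. Non-overlapping libraries were found for 2 members on the higher side and 2 on the lower side, where 2.59% and 4.90% of all tested genes had them. Pdpn and Cav1, the 2 on the lower side, reached 10 CPM in at least 2 libraries only in AEC1. They passed the low-value filter only through that population, and nothing is read from their count.

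Summed mesothelial and fibroblast markers were higher in every AEC1 library than in any AEC2 library, as Pdpn and Cav1 were. Within AEC1 some of these levels moved together and others did not. In the treated AEC1 libraries Pdpn and the fibroblast and smooth muscle sum were higher, and Cav1 lower, than in untreated ones. With papain and FK506, Pdpn was higher, and Cav1 and the mesothelial sum lower, than untreated. The summed level of 15 mesothelial markers was 6061.0 to 22867.1 CPM in AEC1 and 134.0 to 1003.3 CPM in AEC2, and 1 of the 15 was at 0 in all AEC1 libraries against 7 in all AEC2 libraries. The summed level of 23 fibroblast and smooth muscle markers was 11773.5 to 33195.0 CPM in AEC1 and 489.4 to 1078.0 in AEC2. The endothelial sum was 100.3 to 496.1 CPM in AEC1 and 9.2 to 101.1 CPM in AEC2, ranges that overlap. Of 21 endothelial markers 7 were at 0 in all AEC1 libraries, among them Cdh5, against 19 in all AEC2 libraries. Kdr, a VEGF receptor, was 75.8 to 450.1 CPM in AEC1 against at most 1.5 in AEC2 (log2 difference -6.31, limma adjusted p = 0.000258). The endothelial marker Plvap (-2.15, limma adjusted p = 0.0867) did not pass. Egfl7 lay on the other side, higher in AEC2, and did not pass either (3.47, limma adjusted p = 0.0563). The part of these cells in the Pdpn and Cav1 levels was not tested. Among mesothelial markers 12 of 14 tested were lower in AEC2 and none higher, and among fibroblast markers 14 of 20 were lower and none higher. Among AEC2 markers 19 of 20 were higher and none lower. Over all genes tested 8.25% were called lower in AEC2 and 4.43% higher. Markers low in 1 population could pass the low-value filter only through the other, so nothing is read from these counts.

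The remaining members did not pass. Emp2 was the evenest, at 177.7 to 327.8 CPM in AEC2 and 182.5 to 316.2 in AEC1, differing by 0.17 on the log2 scale (SE 0.32, limma adjusted p = 0.775). Hopx was at 0 in 4 of 6 libraries of each population, and above 10 CPM only in AEC2 papain with FK506, at 15.0 and 50.5 CPM (log2 difference 0.97, SE 0.57). Akap5 was above 0 in 3 libraries of each population, up to 33.7 CPM (log2 difference -0.18, SE 1.13). Clic5 was above 0 in 2 libraries of each, up to 34.4 CPM (log2 difference 0.45, SE 0.96). Rtkn2 was listed at 0 in all 12 libraries. A missing call for these low genes does not show equal levels. Ordered by mean, the members in AEC1 ran Cav1, Pdpn, Emp2, Ager, Aqp5 and Gprc5a, the first 3 with overlapping ranges. In AEC2 they ran Ager, Aqp5, Emp2 and Gprc5a.

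**Figure D1:**
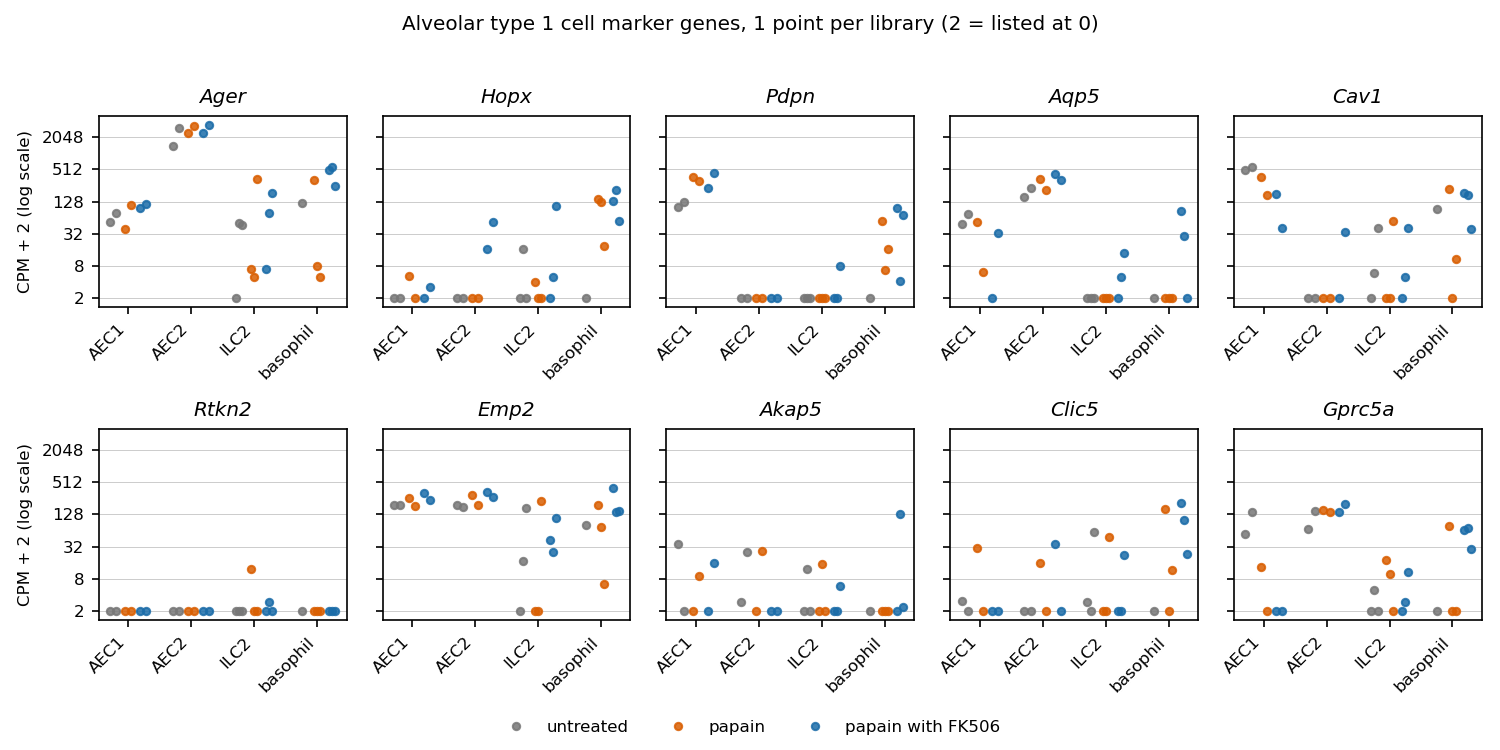
Level of each member in each of the 28 libraries, as CPM + 2 on a log axis, by sorted population and treatment; a point at 2 is a gene listed at 0. Ager stood highest in AEC2, Pdpn and Cav1 in AEC1, Emp2 was level between the 2 epithelial populations, and Rtkn2 was above 0 in 2 libraries.

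**Figure D2:**
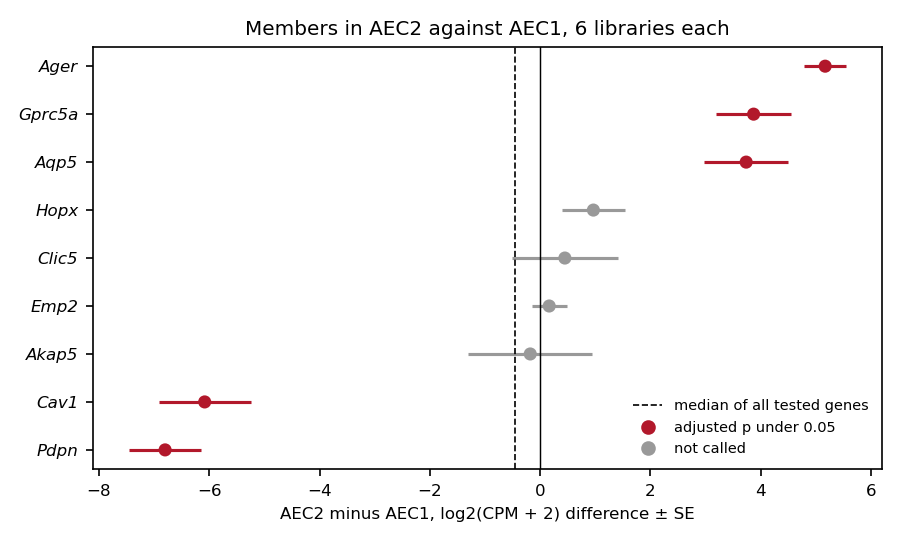
Difference between AEC2 and AEC1 in log2(CPM + 2) with its SE from limma for the 9 members tested, 6 libraries each; the dashed line is the median of all tested genes (-0.45). Ager, Gprc5a and Aqp5 lay to the right and Cav1 and Pdpn to the left, all 5 called.

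Other genes of type 1 biology were taken from lists. Of 37 further type 1 genes tested, 8 were higher in AEC2, 4 were lower and 25 were not called, with a median of -0.16. Over all 9841 genes tested 4.43% were called higher in AEC2 and 8.25% lower. Those with the smallest adjusted p were Sec14l3 (0 to 181.8 CPM in AEC1 and 653.0 to 1759.1 in AEC2, log2 difference 5.92), Ptprf, a receptor phosphatase (2.13), Cldn18, a tight junction protein (2.2 to 50.2 and 396.0 to 1404.9 CPM, 4.91) and the calcium-binding S100a6 (1481.5 to 2735.1 and 37.3 to 272.8 CPM, -3.67). Atp1b1, a subunit of the sodium pump, was also higher (2.71), as were Gde1 (3.98) and Prdx6 (1.48), and Limch1 was lower (-2.67). Sec14l3 is also on the airway list and Limch1 on the fibroblast list.

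In the caveolar list 4 of 6 tested genes were lower in AEC2 and none higher (median -3.57). Cavin1, Cavin2 and Cavin3, coat proteins of caveolae, had log2 differences of -4.18, -4.64 and -5.08, which puts them on the side of Cav1. Cavin1 was 736.3 to 1691.3 CPM in AEC1 and 25.4 to 129.8 in AEC2. In the list of TEAD and YAP genes, the Hippo pathway that senses cell spreading, 4 of 17 were lower (Wwtr1, Tead1, Ccn2 and Axl) and none higher. Ccn2, a secreted matricellular protein, was 70.2 to 1524.0 CPM in AEC1 and at most 0.7 in AEC2 (log2 difference -7.57), while Ccn1 (-1.84) and Amotl2 (-0.34) did not pass. Among 13 genes of cells in transition from type 2 to type 1, 3 were higher (Krt8, Sfn, Areg) and 4 lower (Ndrg1, Plaur, Clu, Mdk). Clu had a log2 difference of -1.67, while Cdkn1a (-0.88) and Krt19 (-3.10) did not pass. Of 6 RAGE ligand genes tested, S100a4 (-5.53) and S100a6 were lower in AEC2, where the receptor gene was higher, while App (0.26) and S100a11 (0.91) did not pass. Over all 9841 genes tested 8.25% were called lower in AEC2 and 4.43% higher. Genes low in AEC2, such as Ccn2, could pass the low-value filter only through AEC1, so nothing is read from the counts of these lists.

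In AEC1 limma called no member for any treatment, and DESeq2 called 2 in 1 comparison. For papain against untreated, 0 of 7 members tested and 0% of 8178 genes were called by limma, and 1 member and 761 genes had an unadjusted p under 0.05. edgeR on recovered reads called 0 members and 15 genes, and DESeq2 called 0 members and 252 genes. Pdpn was higher in both papain libraries (339.6 against 112.1 CPM as means, log2 difference 1.604, SE 0.55, limma adjusted p = 0.449). Cav1 was lower in both (268.2 against 534.9 CPM, -1.08, SE 0.72, limma adjusted p = 0.740), as was Gprc5a (5.8 against 97.7 CPM, -4.19, SE 1.83, limma adjusted p = 0.531). Libraries did not overlap for 1 member on the higher side and 2 on the lower, where 19.2% and 14.2% of tested genes also did not overlap.

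With papain and FK506 against untreated, limma called 0 of 7 members and 0.0245% of genes, and 3 members had an unadjusted p under 0.05, beside 957 genes. Cav1 was 105.8 CPM as a mean against 534.9 CPM untreated (log2 difference -2.80, SE 0.72, limma adjusted p = 0.314). Gprc5a was listed at 0 in both libraries against 53.9 and 141.5 CPM untreated (-5.52, SE 1.83, limma adjusted p = 0.322), and Pdpn was 331.4 against 112.1 CPM (1.36, SE 0.55, limma adjusted p = 0.402). DESeq2 on recovered reads called Cav1 (-2.61, adjusted p = 0.00153) and Gprc5a (-9.09, adjusted p = 0.01141), among 403 genes, and edgeR called 0 members among 29 genes. Libraries did not overlap for 3 members on the higher side (Ager, Pdpn, Emp2) and 3 on the lower (Aqp5, Cav1, Gprc5a), where 24.9% and 14.4% of all genes did the same. Both comparisons with untreated use the same 2 untreated libraries. With FK506 added to papain, Cav1 differed by -1.72 on the log2 scale (SE 0.72, limma adjusted p = 0.814), and no member was called by limma (0% of 8178 genes, 496 with an unadjusted p under 0.05), edgeR (0 genes) or DESeq2 (65 genes). The summed mesothelial markers were 22867.1 and 20252.8 CPM in untreated AEC1, 9529.5 and 21016.4 with papain, and 6061.0 and 6892.3 with papain and FK506. The AEC2 marker sum was 7875.3 and 10869.4 CPM untreated and 2219.5 to 5354.2 CPM in the treated libraries. The fibroblast and smooth muscle sum was higher in all 4 treated libraries, as Pdpn was, at 18788.0 to 33195.0 CPM against 13717.2 and 11773.5 CPM untreated. Their part in the Cav1, Gprc5a and Pdpn levels was not tested.

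**Figure D3:**
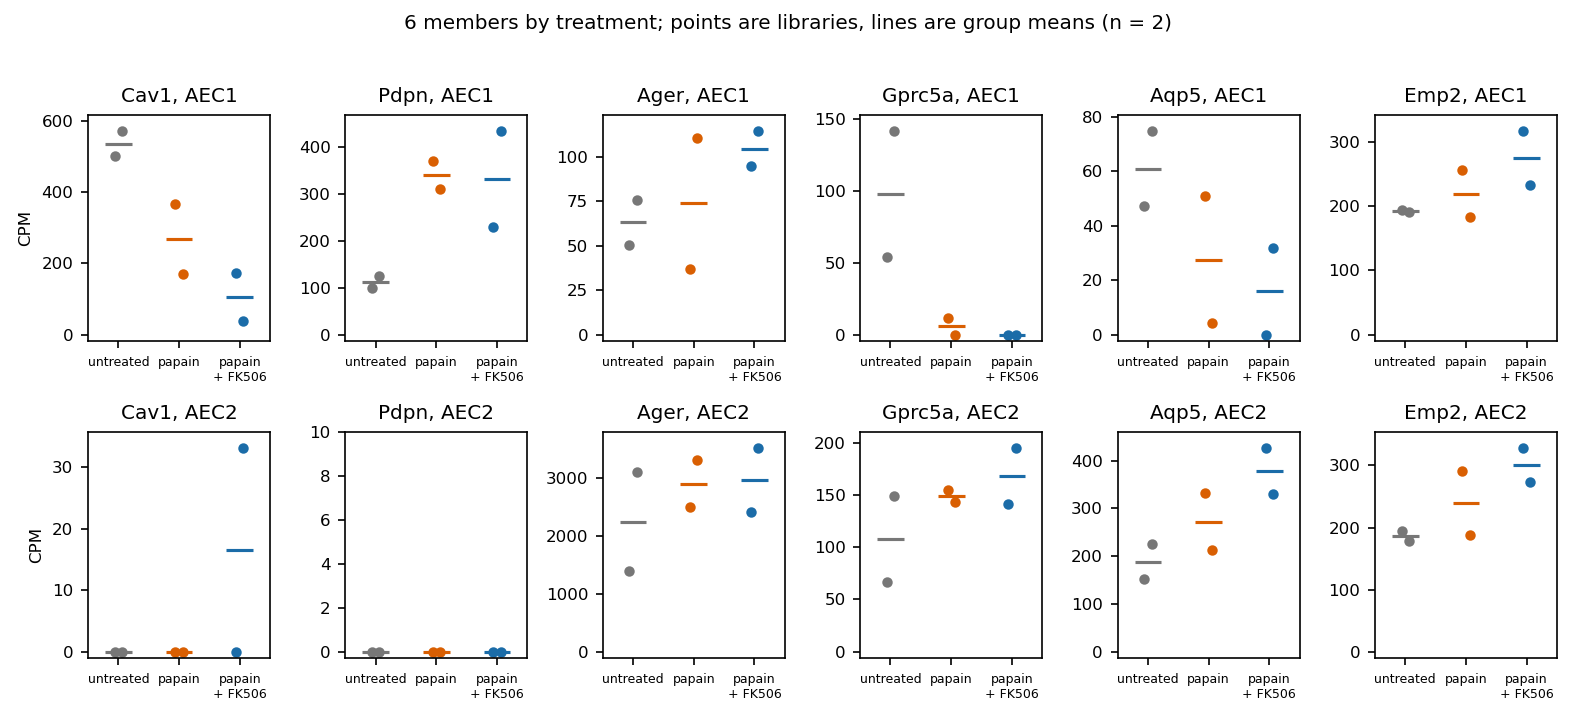
CPM of 6 members by treatment in AEC1 (upper row) and AEC2 (lower row), each panel with its own linear axis; points are libraries and lines are means of 2. Among the AEC1 libraries, the untreated pair had the highest Cav1 and Gprc5a and the lowest Pdpn, and in AEC2 Pdpn was at 0 throughout.

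In AEC2 no member was called for any treatment. Papain against untreated gave 0 of 7 members and 0% of 6719 genes by limma, with 0 members and 15 genes at an unadjusted p under 0.05, and edgeR and DESeq2 called 0 genes. Those tools were run without untreated replicate 1, so their untreated arm is the single library that nearly equals papain replicate 2, and their counts for this comparison are no separate check. No member had non-overlapping libraries here, against 13.6% of genes on the higher side and 2.40% on the lower. This comparison sets the nearly identical libraries against each other. Hopx was at 0 in all 4 untreated and papain libraries and at 15.0 and 50.5 CPM with papain and FK506, but its log2 difference of 3.86 (SE 1.499) had a limma adjusted p of 0.909 against either group. With FK506 added to papain, limma called 0% of genes (284 with an unadjusted p under 0.05), edgeR 0 and DESeq2 44, none of them members. Against untreated, limma called 0% (307 with an unadjusted p under 0.05), edgeR 0 and DESeq2 17, again none of them members, with a single untreated library in the latter 2 tools. Hopx, Aqp5 and Emp2 did not overlap on the higher side and Akap5 on the lower, where 18.9% of genes and 739 of 6719 genes did so. Hopx passed the low-value filter only through the 2 libraries with papain and FK506, and Akap5 only through the nearly identical pair. Nothing is read from the count of these 2 members. Leaving out the nearly identical libraries leaves 1 untreated and 1 papain library, assumed to vary like the FK506 pair. Limma then called 0 members, which says nothing about stability in arms of 1.

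Whether treatment acted differently in AEC2 and AEC1 was tested as an interaction. For papain, limma called 0 of 9 members and 0% of 9841 genes, with 1 member and 454 genes at an unadjusted p under 0.05. In AEC2 this contrast sets the nearly identical libraries on opposite sides, so a missing call says little. Leaving them out leaves 1 untreated and 1 papain library in AEC2. edgeR and DESeq2 had 1 untreated AEC2 library, which nearly equals papain replicate 2, so their counts here are no separate check. Gprc5a had the smallest p, with a difference of 4.61 (SE 1.68, limma adjusted p = 0.972). For FK506 added to papain, limma called 0 members and 0% of genes, with 1 member and 566 genes at an unadjusted p under 0.05. Hopx differed by 4.20 (SE 1.39, limma adjusted p = 0.723) and Cav1 by 3.81 (SE 2.05, limma adjusted p = 0.914). Hopx passed the low-value filter only through the AEC2 libraries with papain and FK506. edgeR on recovered reads called Cav1 (8.65, adjusted p = 0.02007) among 20 genes, and DESeq2 called 0 members among 11. In AEC2, Cav1 was listed at 0 in both papain libraries and was 0 and 33.1 CPM with FK506 added. The AEC2 side of the Cav1 difference therefore rests on 1 library above 0, and its size is set by the values at 0.

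In ILC2 libraries members were low, and Cav1, Emp2 and Clic5 had their highest values in replicate 3 of each condition. Replicate 3 of each condition carries the file code of the basophil libraries and replicates 1 and 2 another code, so the code and the replicate number cannot be told apart. Ager was 0, 49 and 46 CPM in untreated replicates 1 to 3, 5, 3 and 338 with papain, and 5, 76 and 182 with papain and FK506. Cav1 was 39, 53 and 40 CPM in the 3 libraries numbered 3 and at most 4 in the other 6. Emp2 was 164, 231 and 107 CPM in those 3 and at most 41 elsewhere, and Clic5 was 58, 46 and 20 CPM against at most 1. For Ager the libraries overlapped, since untreated replicate 2 and papain with FK506 replicate 2 exceeded untreated replicate 3.

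Against replicates 1 and 2, replicate 3 had log2 differences of 4.01 for Clic5 (SE 1.28, limma adjusted p = 0.0561), 4.26 for Emp2 (SE 1.39, 0.0624), 3.78 for Cav1 (SE 1.38, 0.0988) and 3.44 for Ager (SE 1.36, 0.138). None of these 4 members tested was called, while 5.12% of 6271 genes were, and all 4 had an unadjusted p under 0.05, as had 1249 genes. Libraries did not overlap on the higher side for Cav1, Emp2 and Clic5, and 3.48% of all genes tested had such libraries. Cav1 and Clic5 reached 10 CPM only in the 3 libraries numbered 3 and so passed the low-value filter only through them, and nothing is read from this count. The AEC2 marker sum was 5499, 9168 and 5684 CPM in the libraries numbered 3 and 30 to 768 in the other 6, and their endothelial sum was 803 to 2468 CPM against 45 to 232. Their fibroblast and smooth muscle sum was 5674, 2183 and 2762 CPM against 80 to 774, and their sum of macrophage, monocyte and dendritic cell markers was 3176, 2930 and 16593 CPM against 122 to 554. Against replicates 1 and 2, 8 of 15 AEC2 markers tested and 4 of 12 endothelial markers tested were called higher in replicate 3. Of all genes tested 1.42% were called higher. Markers low in the other 6 libraries could pass the low-value filter only through the 3 libraries numbered 3, so nothing is read from these counts. Of the 16 ILC2 markers, all tested, 8 were called lower in replicate 3 and none higher, where 3.70% of all genes were called lower. These 8 were Gata3, Rora, Il1rl1, Il2ra, Thy1, Icos, Il13 and Hlf. Markers low in the 3 libraries numbered 3 could pass the filter only through the other 6, so nothing is read from this count either. Scgb1a1, of airway club cells, reached 24968 CPM in untreated replicate 3. The part of these cells in the member levels was not tested. Treatment gave 0 of 4 members called by limma in each of 3 comparisons with the file code as a term, where 0%, 0.0159% and 0% of genes were called for papain against untreated, FK506 added to papain, and both against untreated, and 234, 262 and 250 genes had an unadjusted p under 0.05. No member had non-overlapping libraries in any of the 3, where 4.31%, 4.05% and 5.10% of genes did on the higher side and 3.03%, 2.79% and 3.24% on the lower. Of the other members, Hopx reached 103 CPM in papain with FK506 replicate 3, Rtkn2 was 10 CPM in papain replicate 1 and 1 in papain with FK506 replicate 2, and Pdpn, Aqp5, Gprc5a and Akap5 stayed at or below 16 CPM.

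In basophil libraries members spread widely within a group. Ager was 116.9 CPM in the untreated library, 326.8, 6.1 and 3.1 in papain replicates 4 to 6, and 497.9, 558.9 and 253.0 in the papain with FK506 replicates 7 to 9. Papain replicate 4 stood apart from the other 2 of its group, and with it the groups overlapped. Cav1 was 219.9, 0 and 8.9 CPM with papain and 180.2, 165.9 and 38.1 with FK506 added, and Clic5 was 157.8, 0 and 9.5 and then 205.1, 97.6 and 21.5 CPM. Emp2 was 187.6, 71.4 and 4.4 CPM with papain and 403.7, 137.8 and 148.4 with FK506 added. Each of these 3 genes was highest of the papain group in replicate 4.

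For FK506 added to papain, limma called 0 of 7 members tested and 0% of 5853 genes, with 2 members and 354 genes at an unadjusted p under 0.05. Ager differed by 4.10 on the log2 scale (SE 1.13, limma adjusted p = 0.664) and Emp2 by 2.16 (SE 0.97, limma adjusted p = 0.812). Without papain replicate 4 the Ager difference was 5.99 and was called (limma adjusted p = 0.007212). The AEC2 marker sum was 3344.1, 3329.5 and 4313.7 CPM with papain and 13755.5, 11484.6 and 3494.7 CPM with FK506 added, and the endothelial sum was 3822.2 CPM in papain replicate 4 against 533.0 and 363.8 in the other 2. The fibroblast and smooth muscle sum did not overlap between the groups, at 2754.8, 1366.8 and 1504.6 CPM with papain and 6428.7, 6340.5 and 4520.0 CPM with FK506 added. The sum of macrophage, monocyte and dendritic cell markers was 13321.8, 22546.8 and 22389.2 CPM with papain and 4778.6, 13074.6 and 16417.6 CPM with FK506 added. Their part in the member levels was not tested. Against the single untreated library, papain gave 1 member called of 7, where 23.1% of genes were called and the median of all genes was 3.05. This was Hopx, at 0 CPM untreated and 144.7, 122.5 and 16.7 CPM with papain (log2 difference 5.197, SE 1.31, limma adjusted p = 0.009425). The untreated library had 2002 genes above 0, against 6401 to 7894 in the other 6, so an effect of papain and the few genes above 0 in this 1 library cannot be told apart. The lone untreated library is assumed to vary like the other groups, and the call was lost with no low-value filter (limma adjusted p = 0.0592) and with no variance trend (0.0568). Ager differed by -1.95 (SE 1.602, limma adjusted p = 0.365), and was called without papain replicate 4 (-3.88, limma adjusted p = 0.009469). Aqp5 was above 0 only in papain with FK506 replicates 7 and 8, at 85.1 and 27.8 CPM. Akap5 reached 126.1 CPM in replicate 8, and Rtkn2 was listed at 0 in all 7.

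**Figure D4:**
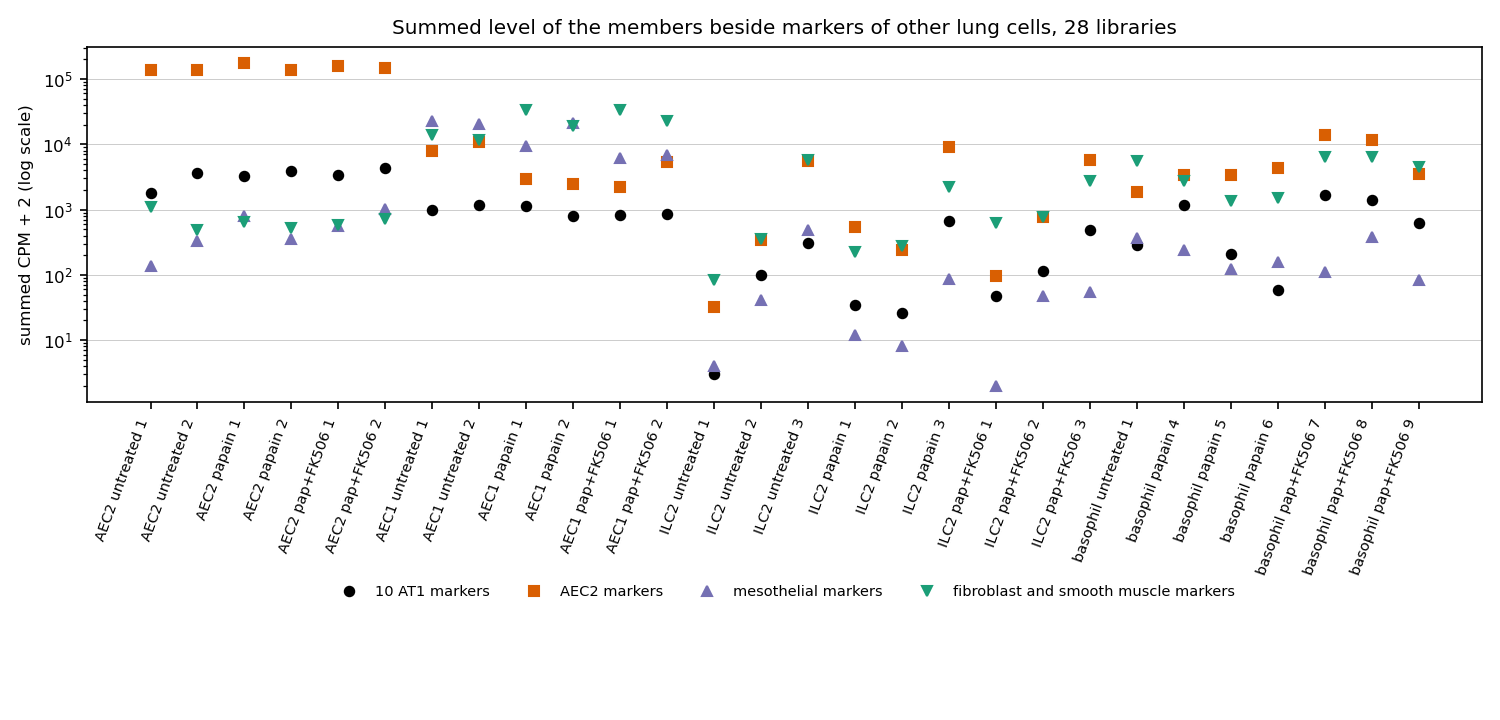
Summed CPM + 2 (log axis) of the 10 members and of the AEC2, mesothelial, and fibroblast and smooth muscle marker lists in each library. Member sums were 1798.0 to 4386.4 CPM in AEC2, 784.2 to 1177.8 in AEC1, 1.0 to 668.0 in ILC2 and 57.6 to 1663.9 in basophils, and the AEC1 libraries had the highest mesothelial and fibroblast sums.

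Across populations Ager was highest in AEC2, with means of 251.8 ± 223.9 CPM in basophils (SD, n = 7), 80.5 ± 31.8 in AEC1 (SD, n = 6) and 78.2 ± 113.3 in ILC2 (SD, n = 9), the last 3 with overlapping ranges. Hopx had its highest mean in basophil libraries, at 97.0 ± 76.3 CPM (SD, n = 7), then 13.7 ± 33.8 in ILC2 (SD, n = 9), 10.9 ± 20.3 in AEC2 and 0.7 ± 1.3 in AEC1 (SD, n = 6 each), and its basophil range overlapped those of the other 3 populations. Over the means of 12 groups, the genes whose centred log2(CPM + 2) lay nearest to Ager among 11310 genes were Cfap126, Stmnd1, Ccdc17, Nkx2-1 and Phkb, with root mean square differences of 0.60 to 0.64. Nkx2-1, a lung epithelial transcription factor, was 3.0 to 290.0 CPM in AEC2 and at most 3.5 in AEC1. For Cav1 they were Ifitm3, Sema3c, Naa16, Agfg1 and Timp2, with differences of 0.98 to 1.28, so no gene lay as near to Cav1 as those did to Ager. Ifitm3, an interferon-induced membrane protein, was 1101.2 to 2224.6 CPM in AEC1 and 33.4 to 137.5 in AEC2.

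The annotation (GENCODE M21, GRCm38) places Ager at chr17:34597862-34600936, Aqp5 at chr15:99590782-99594829 and Cav1 at chr6:17306335-17341452 on the plus strand, and Pdpn at chr4:143267431-143299564 on the minus strand. The 3′ end of Cav1, where these libraries are read, lies within the antisense gene Gm15581. Whether counting used strand is not given in the sources, so reads of the 2 genes may not be separable and the Cav1 values are uncertain to that degree. Hopx and Rtkn2 also overlap an antisense gene, but not at the 3′ end.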

How the data were processed

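The authors deposited CPM for the AEC1 and basophil libraries and 5 AEC2 libraries. The deposited tables of the 9 ILC2 libraries and of the first untreated AEC2 replicate hold only whole numbers, and these were taken as a score, CPM rounded before deposit. Per the submitters' processing notes, STAR 2.7.0c, featureCounts 1.6.0 and the builds mm10 and GRCm38.p6 were used, with no setting given. Libraries were made from 10 ng of RNA with a 3′-end kit, per the labels' protocols. The 10 members, the gene lists and the tests were chosen with earlier results of these data known.

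Groups came from the labels. Genes at 10 CPM or more in at least 2 AEC or 3 ILC2 or basophil libraries were tested. CPM were divided by TMM factors (edgeR 4.0.16), raised by 2 CPM, converted to log2 and modelled with limma 3.58.1 in R 4.3.3 with a variance trend, two-sided, adjusted by Benjamini-Hochberg over all genes at 0.05. This scale understates the change of low genes. The libraries of a cell type shared 1 spread. For ILC2 the file code was a term. Whole reads were recovered from the steps in low CPM values (within 0.1 read) for edgeR and DESeq2 1.42.0, without AEC2 untreated replicate 1. The fit was tested on simulated data.

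Named genes were all members, the further type 1 genes with the 8 smallest adjusted p, up to 3 genes of the other pathway lists by mean CPM, the 5 genes most like Ager and Cav1, and the 2 highest genes in AEC1 of other cell type lists, not all of which are printed. Other genes named were chosen after their values were seen. Likeness used 12 group means. Same-numbered libraries were checked for shared deviations, with no sign that numbers pair them in every group. Alternatives were another pseudocount, filter, scaling, trend or tool, leaving out each library, and a replicate block.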

Additional observations from a re-analysis of the deposited data

How the results depend on the processing

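Of 271 alternative counts of called members, 256 matched the count reported or lay within 1.5 times of it. Many of these matches are 0 against 0 in comparisons where limma called few or no genes in all, so their number does not measure stability. For AEC2 against AEC1, 5 members were called under every pseudocount, filter, scaling, tool and single-library omission tried, but 0 without treatment, 0 with papain and 3 with papain and FK506 when each condition was taken alone (2 against 2), where 0, 0 and 1209 genes were called in all. The replicate block left the 5 members called and moved the count over all genes from 1248 to 789, and it changed no other member call. edgeR called 891 genes and DESeq2 1522. In other comparisons edgeR called 1 member for FK506 added to papain in AEC2 against AEC1, and DESeq2 called 2 for papain with FK506 against untreated in AEC1. For ILC2 replicate 3, 2 members were called with 5 CPM added, with no TMM factors or scaled to the listed sum, 1 with no variance trend, and 0 to 2 when 1 library was left out (2 without papain with FK506 replicate 1, 1 without replicate 3). All genes called there ran from 112 to 405. For papain against untreated basophils, 0 were called with no filter or no trend and 1 to 2 when 1 library was left out. For FK506 added to papain in basophils, 0 to 1 were called when 1 library was left out. The cause of these changes was not tested. Uncalled differences between AEC2 and AEC1 changed sign for Akap5 (-0.88 to 0.49 when 1 library was left out, 0.12 without treatment), Clic5 (-0.24 to 1.13 when 1 library was left out, -0.49 with papain) and Emp2 (-0.030 without treatment and -0.031 with papain).

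Dividing by the sum over genes listed in all tables moved 39 of 40 means of a member in a cell type by less than 1 SD. Ordering members by median instead of mean swapped Cav1 and Pdpn in AEC1 and reordered Hopx, Akap5 and Cav1, all low, in AEC2. One read was worth about 1 CPM in AEC libraries, so members under a few CPM rest on single reads, and for ILC2 the depth is unknown.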
